A study of Mus musculus with 12 samples.

Results

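The genes described here are 63 enzymes of xenobiotic metabolism that were expressed in mouse large-intestinal crypts, out of 28793 genes in the expression table. They were chosen by symbol and by level. The symbol had to begin with Cyp1, Cyp2, Cyp3, Cyp4, Ugt1, Ugt2, Gst, Sult, Ces1 or Ces2, leaving out symbols with -ps, and the gene had to reach an RPKM (a read count scaled by gene length and by library size) of 1 or more in at least 2 of the 6 libraries of unsorted crypts. The symbols alone gave 148 genes, and 11464 genes of the whole table met the level criterion. The level in unsorted crypts is therefore part of the choice, and the high levels themselves are a description and not a result. The 63 enzymes comprised 24 cytochrome P450 genes, 9 carboxylesterases, 17 glutathione S-transferases, 5 sulfotransferases and 8 UDP-glucuronosyltransferases. Of the P450 genes 13 belonged to Cyp2, 1 to Cyp3, 7 to Cyp4 and none to Cyp1. Another 3, Cyp20a1, Cyp27a1 and Cyp39a1, entered only because their symbols begin with the same characters and belong to other P450 families, and Gstcd likewise carries the Gst prefix without being named for a transferase class.

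The 12 RNA libraries were made from large-intestinal crypts of C57BL/6 mice, 3 months of age, that differed in Tert, the gene of the telomerase reverse transcriptase. Unsorted crypt epithelial cells gave 2 libraries labelled mTert_HET (heterozygous), 2 labelled mTert_NULL_Generation4 (null G4) and 2 labelled mTert_reactivated_Generation4 (reactivated), whose sample descriptions add the abbreviation tam without spelling it out. GFP-sorted crypt cells, described as stem/progenitor cells, gave 3 mTert_HET libraries and 3 labelled mTert_NULL_Generation3 (null G3). The heterozygous mice carry 1 altered Tert copy and are the only controls, and neither the allele nor the driver of GFP or of reactivation is given in the labels. Libraries of a group are called biological replicates without being tied to animals. The p-values therefore set a group difference only against the spread of these libraries, which may be technical. For unsorted crypts that spread is pooled over all 3 groups, also when 2 of them are compared.

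Xenobiotic metabolism turns lipid-soluble foreign and endogenous compounds into products that can be excreted. Cytochrome P450 enzymes and carboxylesterases introduce or expose a reactive group, and glutathione transferases, sulfotransferases and UDP-glucuronosyltransferases then attach glutathione, sulfate or glucuronic acid. In the colon these enzymes act on diet-derived, microbial and biliary compounds, and many of them are known to increase as cells leave the crypt base and differentiate.

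Promoter sequences, from 250 bases before to 50 bases after the annotated start, were found in the RefSeq table (GRCm38.p6) for 53 of the 63 enzymes. The sequences of 4 are shown because the comparison of null G4 with heterozygous crypts turns on these genes or on their cluster. Gsta3 was the glutathione transferase that passed as higher, Cyp2w1 and Cyp4b1 were the P450 genes that passed as lower, and Ces1g is an abundant gene of the carboxylesterase cluster that also holds Ces1d. They lie at chr1:21240335-21240634 on the plus strand for Gsta3, chr5:139352366-139352665 on the plus strand for Cyp2w1, chr4:115647672-115647971 on the minus strand for Cyp4b1 and chr8:93337160-93337459 on the minus strand for Ces1g. Capitals mark matches to the motif letters given below.
Gsta3: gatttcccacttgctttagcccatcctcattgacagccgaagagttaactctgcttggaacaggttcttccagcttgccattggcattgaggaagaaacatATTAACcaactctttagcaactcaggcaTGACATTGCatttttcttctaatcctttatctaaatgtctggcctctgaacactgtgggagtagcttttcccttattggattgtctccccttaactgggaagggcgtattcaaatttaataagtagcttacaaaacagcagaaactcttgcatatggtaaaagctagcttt
Cyp2w1: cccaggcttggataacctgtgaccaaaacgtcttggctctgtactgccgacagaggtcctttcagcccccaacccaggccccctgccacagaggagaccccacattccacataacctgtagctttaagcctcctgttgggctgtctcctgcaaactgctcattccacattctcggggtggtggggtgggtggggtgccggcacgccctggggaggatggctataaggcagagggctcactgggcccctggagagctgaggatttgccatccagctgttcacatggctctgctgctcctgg
Cyp4b1: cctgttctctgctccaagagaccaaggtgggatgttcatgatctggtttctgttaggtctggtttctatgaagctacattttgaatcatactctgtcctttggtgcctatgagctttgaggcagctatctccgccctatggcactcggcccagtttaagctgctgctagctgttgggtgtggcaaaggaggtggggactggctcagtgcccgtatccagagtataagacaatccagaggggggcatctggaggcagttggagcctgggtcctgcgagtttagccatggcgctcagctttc
Ces1g: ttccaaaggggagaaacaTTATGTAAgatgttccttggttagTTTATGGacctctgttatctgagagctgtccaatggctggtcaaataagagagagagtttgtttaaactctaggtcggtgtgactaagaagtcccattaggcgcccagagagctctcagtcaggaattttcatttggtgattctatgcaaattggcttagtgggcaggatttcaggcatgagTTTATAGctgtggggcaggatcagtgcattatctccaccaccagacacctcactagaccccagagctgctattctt

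Both strands were searched for 6 short motifs. The antioxidant response element core TGACNNNGC, the site of Nrf2 with small Maf proteins, was found in 4 of the 53 promoters (7.55%) and in 12.4% of the 32851 promoters of the table. Gsta3 holds it as TGACATTGC beginning at position -121 from the start, and the other holders were Cyp2c65, Cyp2j6 and Gstm5. The xenobiotic response element core TNGCGTG, bound by the aryl hydrocarbon receptor, was in 7.55% of the enzyme promoters and 5.07% of all promoters, and the holders were Cyp2c68, Gstcd, Sult1d1 and Ugt1a5. The D-box core TTANGTAA, bound by the clock-controlled factors Dbp, Tef and Hlf, was in Ces1e, Ces1g and Sult1a1 (5.66% against 2.32%), and in Ces1g it began at position -232. The hepatocyte nuclear factor motifs were CAAAGTCCA for HNF4 (3.77% against 0.475%, in Cyp2c65 and Cyp2c68) and GTTAAT for an HNF1 partial site (15.1% against 7.1%, in 8 promoters including Gsta3 and Cyp2d26). The CDX site TTTATNG was in 7.55% against 10.9%, in Ces1g, Cyp2c55, Cyp4f40 and Gstm6. The matches printed for a gene do not overlap each other, and the windows of Cyp2w1 and Cyp4b1 hold none of these letters. The matches describe letters in these windows and were not tested for binding. Each enzyme is represented by the start nearest the beginning of its gene, while the 32851 promoters include all listed starts. The percentages are therefore not built alike, and the enzyme shares rest on 2 to 8 promoters.

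Among the P450 genes Cyp2c55, which oxidises arachidonic acid, had the highest level of all 63 enzymes in unsorted crypts, with a mean of 141 RPKM that includes 442 RPKM in heterozygous replicate 2. In both null G4 libraries it was below Gsto1 and Gstm1. By mean level it was followed by Sult1a1, the phenol sulfotransferase, at 80.4, Gsto1 at 75.8, Gstm1 at 68.3, Ugt2b34 at 52.6 and Sult1d1 at 44.3. These 6 genes held 50.2% of the summed RPKM of the 63. At the other end, 10 enzymes were below 1 RPKM in at least 1 unsorted library. Nearest above the level criterion were Cyp4v3, Ces2f and Ugt1a6b, whose second-highest unsorted values were 1.04, 1.14 and 1.16 RPKM. Nearest below it were Cyp2f2, Cyp3a11 and Ugt1a2 at 0.985, 0.822 and 0.817. Of the 85 genes with a fitting symbol that were left out, 56 stayed below 0.1 RPKM in every unsorted library. Gstp1, a glutathione transferase, was listed at 0 in all 12 libraries, which in a table without counts can be a failed estimate. Cyp1a1, the classical target of the aryl hydrocarbon receptor, was at most 0.201 RPKM in unsorted crypts. Cyp4b1 met the criterion only through the heterozygous libraries, and Ces2f, Cyp2d9 and Cyp2r1 met it without them. These 4 genes had to differ somewhat between groups to be chosen.

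**Figure D1:**
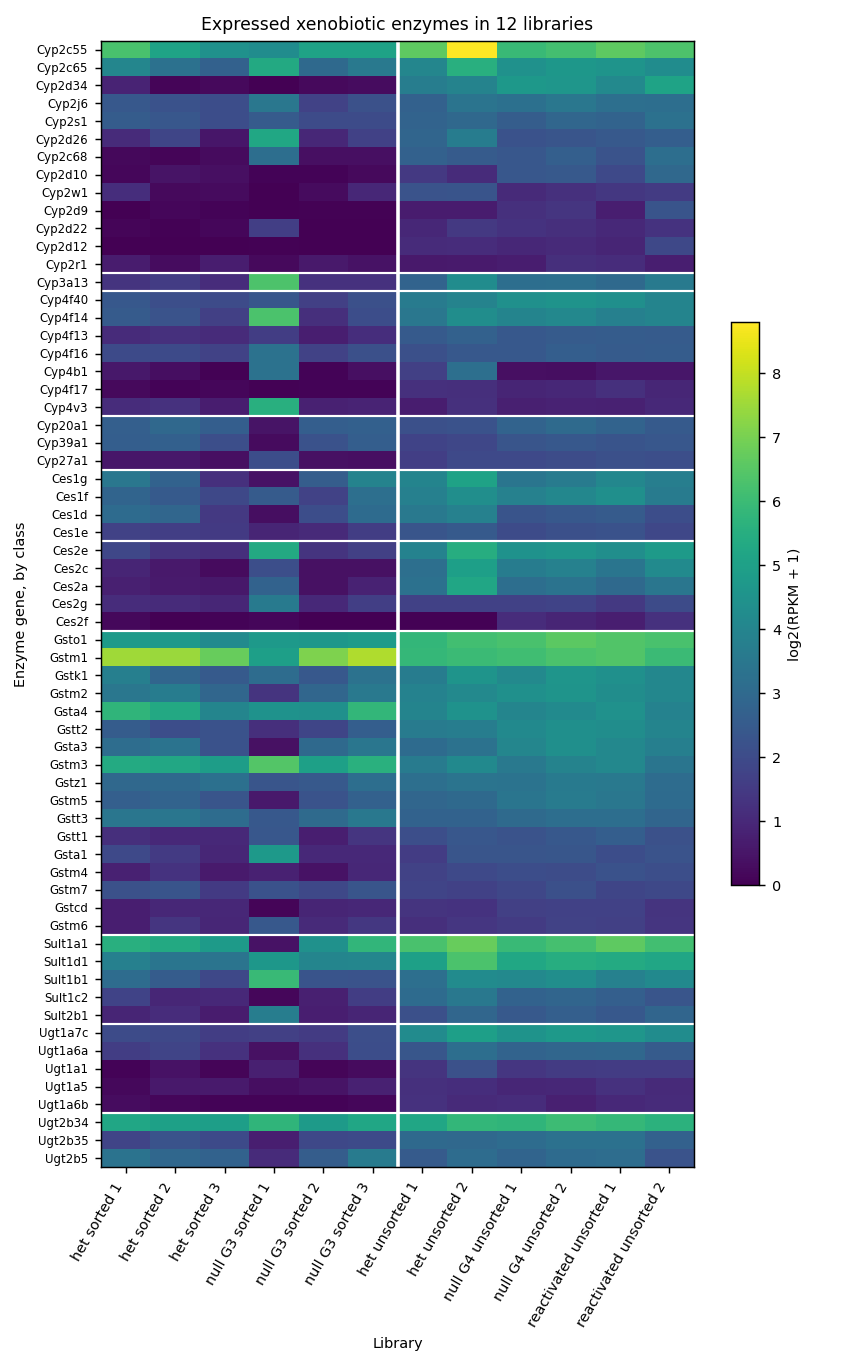
Expression of the 63 enzymes (rows, by class and within a class by mean unsorted level) in the 12 libraries (columns), as log2(RPKM + 1). Cyp2c55 in heterozygous unsorted replicate 2 is the brightest cell, and null G3 sorted replicate 1 departs from the other sorted columns in both directions.

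The depth implied by the smallest RPKM steps was 74700000 to 102600000 reads per unsorted library and, less certainly, 170500000 to 245900000 per sorted library. Tert was at 0.459 and 0.251 RPKM in heterozygous unsorted crypts and between 0.00778 and 0.0377 in the null G4 and reactivated libraries, while the sorted groups overlapped. Y-linked genes separated libraries as well: Ddx3y was at 4.73 and 4.78 RPKM in the heterozygous unsorted libraries, at most 0.00574 in null G4 and in reactivated replicate 1, and at 4.75 in reactivated replicate 2. Null G4 and heterozygous unsorted libraries therefore differ in sex as well as in Tert, and the effects of these cannot be told apart in that comparison. In the sorted set only null G3 replicate 2 had Y-linked expression (Ddx3y 1.75). Lgr5, the marker of crypt base stem cells, was at 3.4 to 4.74 RPKM in 5 sorted libraries and at 0.453 to 0.928 in unsorted crypts, but at 0.121 in null G3 sorted replicate 1. Immune markers summed to at most 4.71 RPKM and stromal markers to at most 5 in every library. Fewer cells of a type and less RNA per cell cannot be told apart in these bulk libraries.

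Heterozygous unsorted replicate 2 stood apart in these enzymes. It had the highest value of the 6 unsorted libraries for 25 of the 63 enzymes (39.7%), compared with 6.32% of all tested genes. Relative to heterozygous replicate 1, 23 enzymes (36.5%) were at least 1.5 times higher and 1 was at least 1.5 times lower, compared with 848 (7.40%) and 456 (3.98%) of the 11464 tested genes. Cyp2c55 was at 97.2 RPKM in replicate 1 and 442 in replicate 2, a ratio of 4.55. The carboxylesterases Ces2a (8.62 and 35.5), Ces2c (8.33 and 30.4) and Ces2e (14.1 and 43.2) and the P450 genes Cyp3a13 (5.92 and 18.2) and Cyp2c65 (15.3 and 45.5) differed by 2.97 to 4.12 times. The difference reached Sult1d1 (30.7 and 78.8) and Ugt1a1, the bilirubin conjugating enzyme (1.52 and 3.49). It did not extend to Cyp2w1, at 3.75 and 3.83, or to Gstt3, at 5.73 and 5.76. Of 8 surface colonocyte markers 7 were higher in replicate 2 than in replicate 1, with sums of 3712 and 1130 RPKM, of which Car1, a carbonic anhydrase, held 2870 and 747. Across the 6 unsorted libraries replicate 2 was the highest for Car1, Guca2a (516) and Aqp8 (59.8) and not for the other 5 markers, and Aqp4 was lower there (35.8) than in any other unsorted library. All 10 small-intestinal enterocyte markers were higher in replicate 2 as well, with a sum of 292 against 97.8 and 76.6 to 112 elsewhere. Other lists also leaned to replicate 2: 7 of 7 immune, 5 of 5 enteroendocrine, 6 of 7 stromal and 4 of 5 tuft cell markers. Proliferation markers were higher there for 4 of 6, goblet cell markers for 3 of 8 and Lgr5 stem cell markers for 1 of 8. The part of all these markers in the enzyme values was not tested. The null G4 replicates were closer, with 1 of the 63 enzymes at least 1.5 times higher and 1 lower in replicate 2. In the reactivated pair 9 enzymes (14.3%) were at least 1.5 times higher and 7 (11.1%) at least 1.5 times lower in replicate 2, compared with 3.51% and 22.7% of all tested genes.

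**Figure D2:**
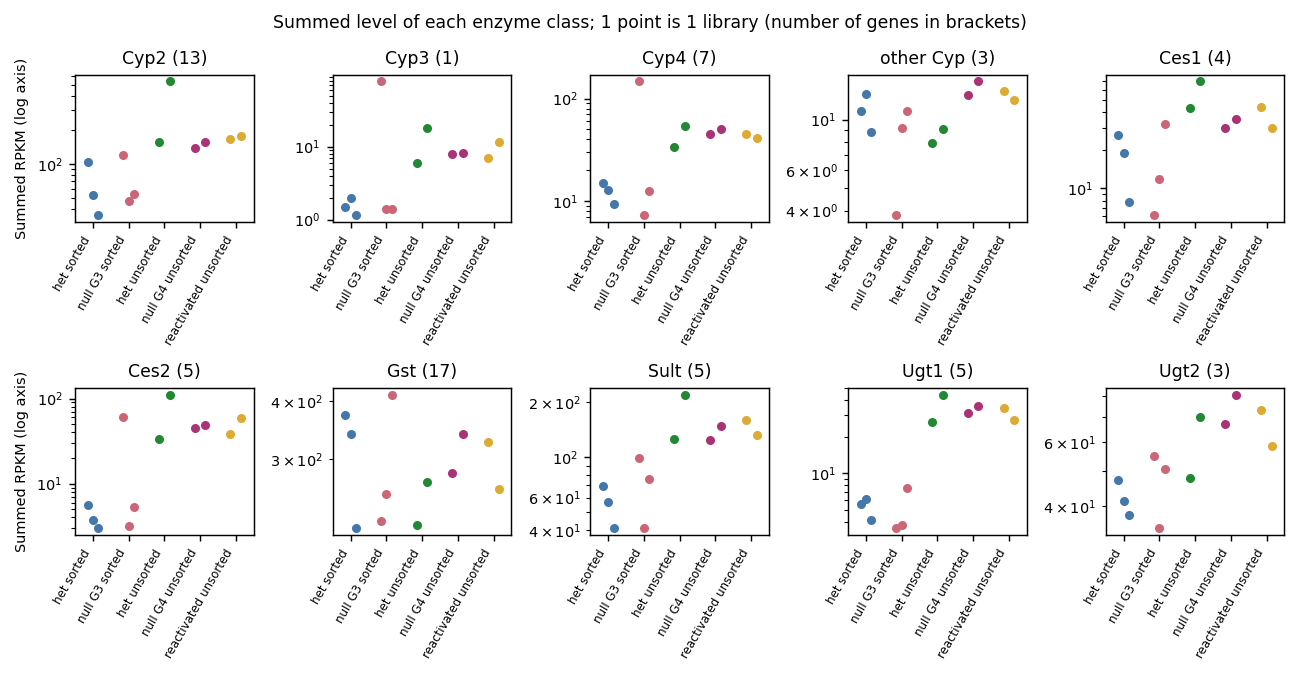
Summed RPKM of each enzyme class (log axis, which does not start at 0) in every library of the 5 groups. For Cyp2, Cyp3, Cyp4, Ces1, Ces2, Sult and Ugt1 the highest unsorted point is heterozygous replicate 2. For Cyp2, Cyp3, Cyp4, Ces2, Sult and Ugt2 the highest sorted point is null G3 replicate 1.

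Null G4 crypts were compared with heterozygous crypts, 2 libraries each, to ask which enzymes differ with telomerase loss over generations. At an adjusted p under 0.05 (limma on log2(RPKM + 1), Benjamini-Hochberg over 11464 genes), 3 of the 63 enzymes were higher and 3 were lower in null G4. In the same comparison 4.97% of all tested genes were higher and 0.576% lower, which is 570 and 66 genes. That split became 135 and 102 after quantile normalization and 147 and 175 after median scaling. The enzymes that rose were Gsta3, Ces2f and Cyp20a1, and those that fell were Cyp4b1, Ces1d and Cyp2w1. Ces2f and Cyp4b1 met the level criterion only through the groups in which they are high and so had to differ, and they stand apart from the other 4 in this respect. The median log2 difference was 0.08 over the 63 enzymes and 0.36 over all genes, so a difference near 0.36 is the usual one in this pair of groups. The null G4 values lay above both heterozygous values for 24 enzymes and below them for 12, while all tested genes did so in 74.7% and 6.5% of cases. At an unadjusted p under 0.05 there were 18 enzymes, and 44.2% of all genes.

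**Figure D3:**
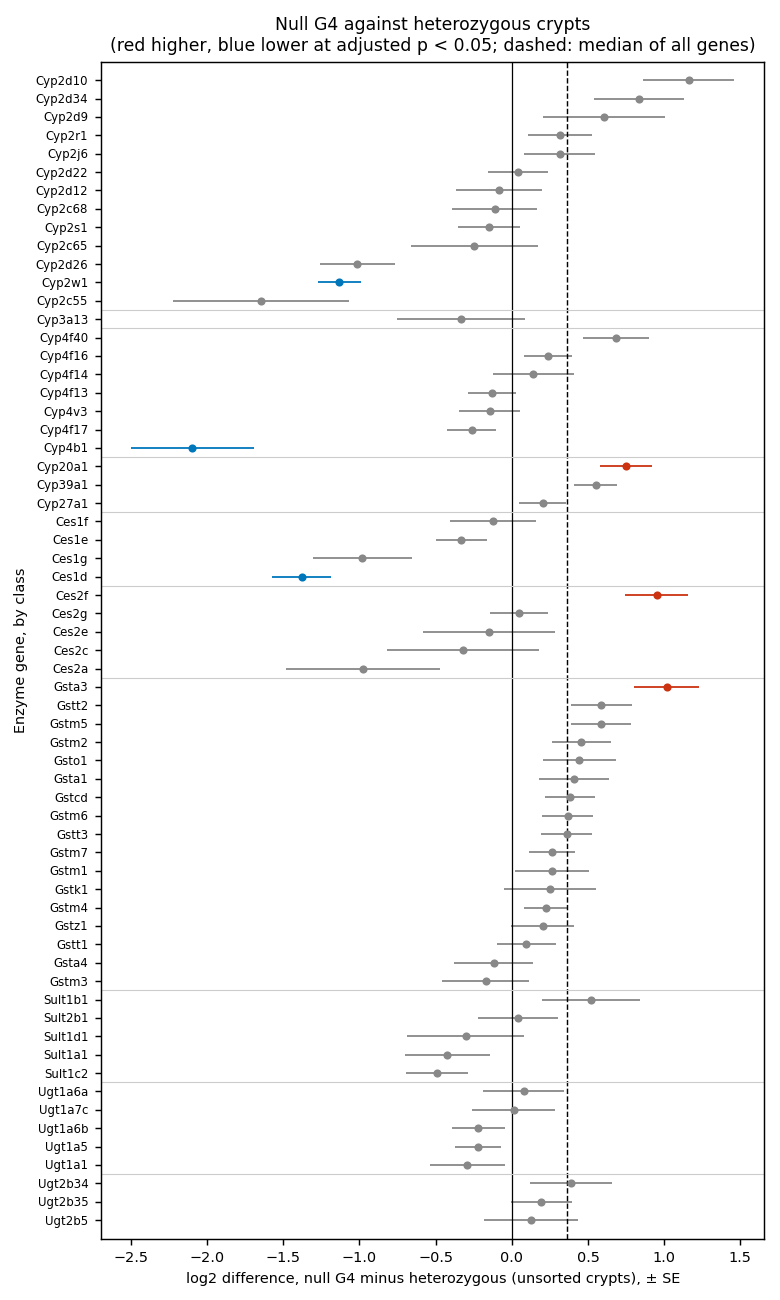
Log2 difference between null G4 and heterozygous unsorted crypts for each of the 63 enzymes, by class, with the limma standard error (bars), the median of all genes at 0.36 (dashed line) and colour for an adjusted p under 0.05. The transferases of the Gst class gather around the dashed line, and all 4 Ces1 genes lie left of 0.

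Among the P450 genes Cyp2w1 (chr5:139352617-139357033), a P450 best known from fetal colon and colorectal tumours, was at 3.75 and 3.83 RPKM in heterozygous crypts. It was at 1.07 and 1.31 in null G4 and at 1.66 and 1.86 in reactivated crypts. Both null G4 values lay below every other unsorted value, and the reactivated values lay between the groups. The log2 difference of null G4 from heterozygous was -1.13 (SE 0.14, limma adjusted p = 0.00475), or -1.49 relative to the all-gene median. Cyp4b1 (chr4:115624725-115647723), a fatty acid hydroxylase that also activates the lung toxin ipomeanol, was at 2.16 and 8.27 RPKM in heterozygous crypts. It was at 0.291 and 0.24 in null G4 and at 0.441 in both reactivated libraries. The heterozygous pair was apart by a factor of 3.83, but both values exceeded the other 4. The difference was -2.10 (SE 0.40, limma adjusted p = 0.0309), and it did not pass after median scaling (adjusted p = 0.0532) or quantile normalization (0.0759). Cyp4b1 met the level criterion only through the heterozygous libraries, so a lower null G4 level is part of its choice. Its p-values are therefore a description and not a test.

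Cyp20a1 (chr1:60343323-60388060), a P450 without an established substrate, had heterozygous values of 3.44 and 3.65 RPKM, null G4 values of 6.02 and 7.29 and reactivated values of 5.96 and 4.58. All 4 libraries of generation 4 lay above the heterozygous pair. The log2 difference of null G4 was 0.75 (SE 0.17, limma adjusted p = 0.0461), or 0.39 relative to the all-gene median. It did not pass after quantile normalization (0.0815) or median scaling (0.0726).

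The Cyp2d genes on chromosome 15 (chr15:82370527-82794294, 6 of the 63 enzymes) did not share a direction. Cyp2d26 had heterozygous values of 6.28 and 11.8 RPKM, null G4 values of 3.64 and 3.95 and reactivated values of 4.48 and 5.17, with a log2 difference of -1.01 for null G4 that missed the threshold (limma adjusted p = 0.0507). Cyp2d10 measured 1.78 and 1.09 in the heterozygous pair, 4.27 and 4.52 in the null G4 pair and 2.88 and 6.9 in the reactivated pair, with a difference of 1.16 that also missed it (limma adjusted p = 0.0527). Cyp2d34 was at 12.1 and 14.3, 24.8 and 23.7, and 16.6 and 32.9 in the same order. Reactivated replicate 2, the 1 library of generation 4 crypts with Y-linked expression, held the highest unsorted value of Cyp2d9, Cyp2d10, Cyp2d12 and Cyp2d34. For Cyp2d9 it was at 3.9 RPKM against 0.67 in reactivated replicate 1 and 0.583 to 1.54 in the other unsorted libraries. With a term for the level of Y-linked genes Cyp2d10 (2.19, limma adjusted p = 0.0363) and Cyp2d9 passed as higher in null G4. That term rests mainly on the reactivated pair, the only unsorted pair that differs within itself in Y-linked expression. Cyp2d9 met the level criterion without the heterozygous libraries and so had to differ somewhat from them. The near-identical Cyp2d genes may share reads, and no source used here tells how the counting treated such reads.

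The abundant Cyp2c genes on chromosome 19 (chr19:39007019-39741054) had no call. Cyp2c55, at 97.2 and 442 RPKM in the heterozygous pair, measured 61.2 and 70.5 in the null G4 pair and 96.5 and 79.3 in the reactivated pair. Every generation 4 value was below both heterozygous values, and reactivated replicate 1 came within 1 RPKM of heterozygous replicate 1. The null G4 difference was -1.65 (SE 0.58, limma adjusted p = 0.074), and it was -2.73 (adjusted p = 0.000591) without heterozygous replicate 1 and -0.56 (0.22) without replicate 2. In each of these fits the lone heterozygous library, in the first the one that stood apart, is assumed to vary like the other groups. Cyp2c65, its neighbour, was at 15.3 and 45.5, 20.6 and 24.1, and 22.2 and 18.5, so the groups overlapped. The P450 genes for fatty acids and leukotrienes, Cyp4f14 and Cyp4f40, were at 10.1 to 18.7 and 11.5 to 22.1 RPKM in unsorted crypts. Cyp4f40 was above both heterozygous values in every generation 4 library (log2 difference 0.68 in null G4, limma adjusted p = 0.0636). Cyp3a13, the P450 of the Cyp3 family that met the level criterion, overlapped between groups (5.92 and 18.2 against 8.05 and 8.28).

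Carboxylesterases hydrolyse esters and amides of drugs and of lipids. Ces1d (chr8:93166068-93197838), also known as a triglyceride hydrolase, was at 10.8 and 13.7 RPKM in heterozygous crypts. It was at 3.83 and 4.3 in null G4 and at 4.7 and 3.26 in reactivated crypts. All 4 generation 4 values lay below the heterozygous pair, and null G4 and reactivated values overlapped. The log2 difference of null G4 was -1.38 (SE 0.19, limma adjusted p = 0.00877), or -1.74 relative to the all-gene median. None of the 4 Ces1 genes, which lie together on chromosome 8 (chr8:93166068-93337308), had a positive difference, and this was also so after quantile normalization and median scaling. Ces1g, whose promoter is printed above, measured 14.8 and 32.3 in the heterozygous pair, 9.71 and 11.6 in the null G4 pair and 15.9 and 12.6 in the reactivated pair, with a difference of -0.98 that did not pass (limma adjusted p = 0.0684). Ces1e did not pass as deposited but passed as lower after either rescaling. Ces1f was at 13.2 and 19.5 against 13.6 and 15.7, with overlap.

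Ces2f (chr8:104947356-104960047) was the 1 carboxylesterase that rose. It measured 0.0376 and 0.0374 RPKM in the heterozygous pair, 1.14 and 0.875 in the null G4 pair and 0.661 and 1.41 in the reactivated pair. Every generation 4 value exceeded the heterozygous values, but the gene lies at the level criterion. Ces2f met that criterion only through generation 4 libraries, so a higher level there is part of its choice. Its p-values are therefore a description and not a test. The log2 difference of null G4 was 0.95 (SE 0.20, limma adjusted p = 0.042) with a pseudocount of 1 and 3.00 (adjusted p = 0.0301) with a pseudocount of 0.1. After quantile normalization or median scaling the adjusted p was 0.122 and 0.229. The neighbouring Ces2a, Ces2c and Ces2e, which are far more abundant, did not pass, and their null G4 values lay between the 2 heterozygous values for Ces2c (12 and 13.5) and Ces2e (21.5 and 23.1).

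Glutathione transferases conjugate electrophiles. Of the 17, 15 had a positive log2 difference in null G4, but the class median of 0.36 was equal to that of all genes. After quantile normalization 6 of the 17 were positive and after median scaling 9. Gsta3 (chr1:21240589-21265661), an alpha-class enzyme known for conjugating activated aflatoxin in the mouse, was the 1 that passed. Its heterozygous values were 7.32 and 8.92 RPKM, its null G4 values 15.3 and 19.7 and its reactivated values 16.4 and 13. All 4 generation 4 values were above the heterozygous pair. The log2 difference of null G4 was 1.02 (SE 0.21, limma adjusted p = 0.0373), or 0.65 relative to the all-gene median. The adjusted p was 0.0677 after quantile normalization and 0.0548 after median scaling. The most abundant members of the class did not pass: Gsto1, an omega-class enzyme that also reduces dehydroascorbate, was at 56.1 and 68.3 against 75.3 and 95.2, and Gstm1, a mu-class enzyme, was at 56.9 and 63 against 66.9 and 77.6. The mu-class genes lie together on chromosome 3 (chr3:107895821-108044894), where 6 of the 7 had positive differences and Gstm3 did not. They resemble each other in sequence, and reads shared between them could be split by the counting.

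Sulfotransferases and UDP-glucuronosyltransferases gave no call in null G4 with the values as deposited. Sult1a1 measured 75.6 and 106 RPKM in the heterozygous pair, 60.7 and 73.2 in the null G4 pair and 97.3 and 69.2 in the reactivated pair. Sult1d1, which sulfates catecholamines, was at 30.7 and 78.8, 36.7 and 43.1, and 40.2 and 36.1. The 5 Sult differences ran from -0.49 for Sult1c2 to 0.52 for Sult1b1. After quantile normalization Sult1a1 and Sult1c2 passed as lower in null G4, and after median scaling Sult1c2 did. Sult1c2 also passed as lower in reactivated than in heterozygous crypts after either rescaling. Among the transferases for glucuronic acid, Ugt2b34 was at 36 and 55.6, 53.5 and 64.8, and 56.9 and 48.9, and Ugt1a7c was at 18 and 30.4, 21.7 and 25.8, and 23.4 and 18.6. Both overlapped between groups. The 5 Ugt1 differences lay between -0.29 and 0.08. Ugt1 transcripts differ in their first exon and share the others, so that levels of the 5 are not independent.

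**Figure D4:**
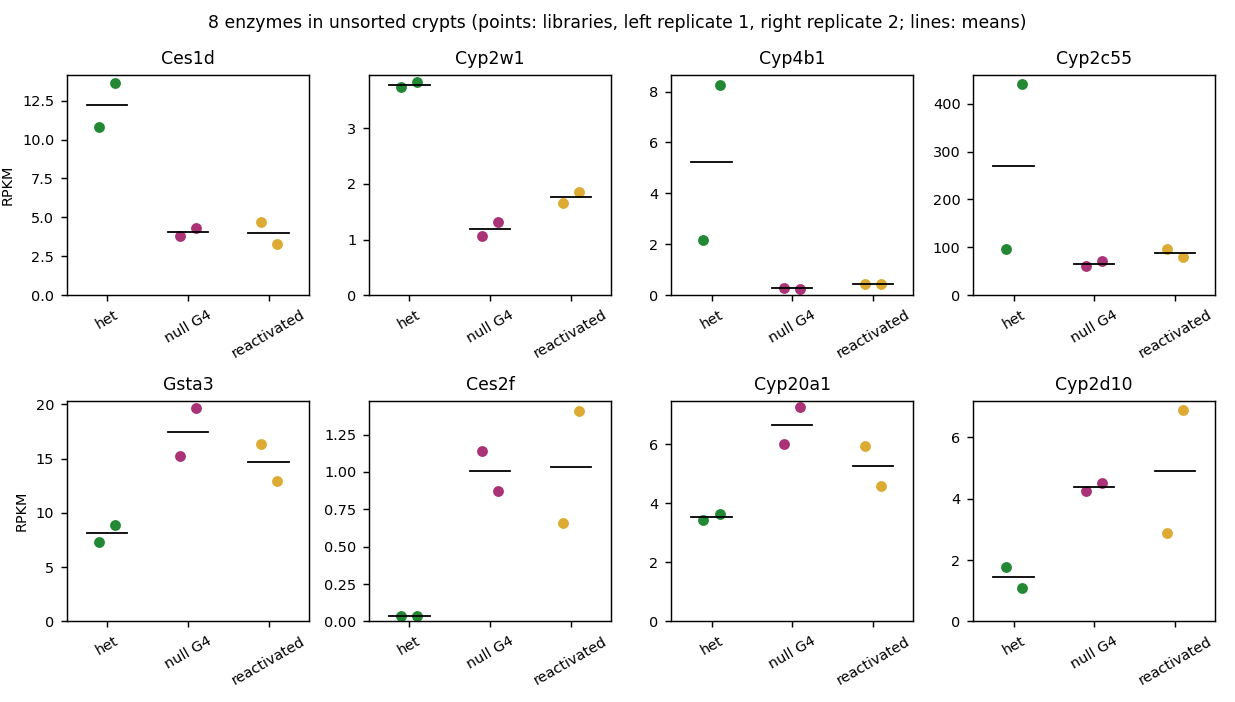
RPKM in unsorted crypts for the 6 enzymes that passed between null G4 and heterozygous and for Cyp2c55 and Cyp2d10, which did not; points are libraries and lines are means of 2. Ces1d and Cyp2w1 have tight heterozygous pairs above all other points, while the heterozygous points of Cyp4b1 and Cyp2c55 are far apart.

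The calls rested on few libraries. Ces1d and Cyp2w1 passed without any 1 of the 6 unsorted libraries. Gsta3, Ces2f and Cyp20a1 failed the threshold when heterozygous replicate 1 was left out (adjusted p = 0.149, 0.0941 and 0.174) or replicate 2 (0.0532, 0.0674 and 0.0804). Gsta3 and Cyp20a1 did not pass without null G4 replicate 1 (0.0604 and 0.107), and none of the 3 passed without null G4 replicate 2 (0.27, 0.329 and 0.0854 for Gsta3, Cyp20a1 and Ces2f). Cyp4b1 was below the level filter without either heterozygous library, and Ces2f without null G4 replicate 1 or reactivated replicate 2. With a term for the level of Y-linked genes, none of the 6 passed. Calls among all genes fell as well, from 570 higher and 66 lower to 59 and 10. Only the reactivated pair differs within itself in Y-linked expression, so the term rests mainly on that pair. This fit therefore cannot tell sex from Tert. Ces1d then had a log2 difference of -1.80 (adjusted p = 0.0527), Cyp2w1 -1.03 (0.0915) and Cyp4b1 -2.08 (0.46), while Ces2f had 1.49 (0.069), Gsta3 0.70 (0.509) and Cyp20a1 0.43 (0.558). Clock genes also differed between these groups, with 2 of 13 tested higher and 6 lower in null G4. Dbp, a clock output factor, measured 6.18 and 4.89 RPKM in the heterozygous pair, 0.293 and 0.215 in the null G4 pair and 0.486 and 3.33 in the reactivated pair. Of 6 proliferation markers 4 passed as higher in null G4, and the markers had sums of 127 and 140 RPKM against 57.8 and 60.2. The part of clock phase and of proliferation in the enzyme values was not tested.

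Reactivated crypts were compared with null G4 crypts to ask which enzymes differ once telomerase is labelled as switched on again. None of the 63 passed in either direction (limma, smallest adjusted p = 0.833). Among all genes 0.0174% were higher and 0.00872% lower, and 2.7% had an unadjusted p under 0.05, against 1 of the 63 enzymes. Cyp2w1 had the smallest p, with a log2 difference of 0.34 (SE 0.14), and its 2 reactivated values exceeded both null G4 values. Next were Cyp20a1 at -0.29 (SE 0.17), Sult1c2 at -0.32 (SE 0.20) and Gstm2 at -0.29 (SE 0.19). The reactivated values lay above both null G4 values for 9 enzymes and below them for 6, compared with 4.58% and 25.5% of all genes. The median was 0.00 over the enzymes and -0.14 over all genes. Without reactivated replicate 1, Cyp2d9 and Cyp2d12 passed as higher, in a fit where replicate 2, with Y-linked expression, is the lone reactivated library and is assumed to vary like the other groups. In that fit 24 of all genes were higher and 161 lower.

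Reactivated crypts were also set beside heterozygous crypts, the same controls as for null G4. Of the 63 enzymes none rose and 2 fell, with 1.13% of all genes higher and 0.148% lower. Ces1d fell by 1.42 on the log2 scale (SE 0.19, limma adjusted p = 0.0119) and Cyp2w1 fell by 0.79 (SE 0.14, adjusted p = 0.0405). On leaving out 1 unsorted library at a time Ces1d passed each time, and Cyp2w1 passed only when that library was reactivated replicate 2. Cyp4b1 was at -1.91 (limma adjusted p = 0.079) and Ces2f at 0.95 (adjusted p = 0.0866), neither of which passed. Both met the level criterion only through the groups in which they are high, so these values are a description. At an unadjusted p under 0.05 there were 11 enzymes, against 14.1% of all genes. Values above both heterozygous libraries were seen for 18 enzymes and below them for 7, compared with 46.7% and 4.42% of all genes. The median was 0.04 over the enzymes and 0.22 over all genes.

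In sorted cells 43 of the 63 enzymes were high enough to be tested between null G3 and heterozygous libraries, 3 each. None passed, and 0.0% of the 8734 tested genes passed in either direction (limma). At an unadjusted p under 0.05 there were 0 enzymes and 143 genes (1.64%). The smallest p values belonged to Ces2g (log2 difference 1.04, SE 0.58), Sult1d1 (0.69, SE 0.40), Gstm6 (0.62, SE 0.38) and Cyp2d26 (1.48, SE 0.94), each with an adjusted p of 0.481. Without null G3 replicate 1 these differences were 0.27, 0.47, 0.23 and 0.18, in the same order. Sult1d1 measured 13.4, 9.65 and 9.4 RPKM in heterozygous cells, and 24.5, 15.1 and 15.2 in null G3 cells. It was the 1 enzyme whose null G3 values all exceeded the heterozygous ones, as did 0.114% of all genes, and no enzyme lay wholly below, as did 12.6%. The median was -0.11 over the enzymes and -0.46 over all genes, and without null G3 replicate 1 these were -0.05 and -0.19. After quantile normalization 33 of the 43 differences were positive, compared with 20 as deposited. The all-gene median moved in the same step from -0.46 to -0.0015, and the enzyme median from -0.11 to 0.37. Both counts include null G3 replicate 1.

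Null G3 sorted replicate 1 stood apart from the other 5 sorted libraries. Of the 43 tested enzymes it was above all 5 for 17 and below all 5 for 18, compared with 8.51% and 79.2% of all tested genes. Cyp3a13 was at 79.1 RPKM in this library and at 1.16 to 1.97 in the others. Cyp4f14 was at 78.2 (others 1.26 to 4.69), Cyp4v3 at 45.5 (0.627 to 1.36), Cyp2d26 at 36.5 (0.448 to 2.61), Ces2e at 39.4 (1.3 to 2.64), Sult1b1 at 61.4 (2.73 to 7.55) and Gsta1 at 25.6 (0.904 to 2.88). Genes of the same families that did not meet the level criterion were also present there. Cyp3a11 was at 27 RPKM, Cyp2b10 at 25.5, Cyp3a25 at 25 and Ugt2a3 at 12.9, and each was at most 0.126 in the other sorted libraries. In the opposite direction Sult1a1 was at 0.344 (others 20.7 to 53.9), Gsta3 at 0.307 (3.66 to 9.99), Ces1d at 0.244 (1.78 to 7.48), Cyp20a1 at 0.371 (5.19 to 6.85) and Gstm1 at 30.2 (107 to 215). Small-intestinal enterocyte markers were higher in this library for 10 of 10 genes, with a sum of 5618 RPKM against 86.7 to 133 in the others. All 8 Lgr5 stem cell markers were lower (sum 7.03 against 133 to 187). So were 8 of 8 goblet cell, 5 of 5 enteroendocrine, 6 of 6 proliferation, 4 of 5 tuft cell and 6 of 7 stromal markers. Of 8 surface colonocyte markers 4 were above and 4 below the other sorted libraries, and 3 of 7 immune markers were below. The part of these markers' cells in the enzyme values was not tested.

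**Figure D5:**
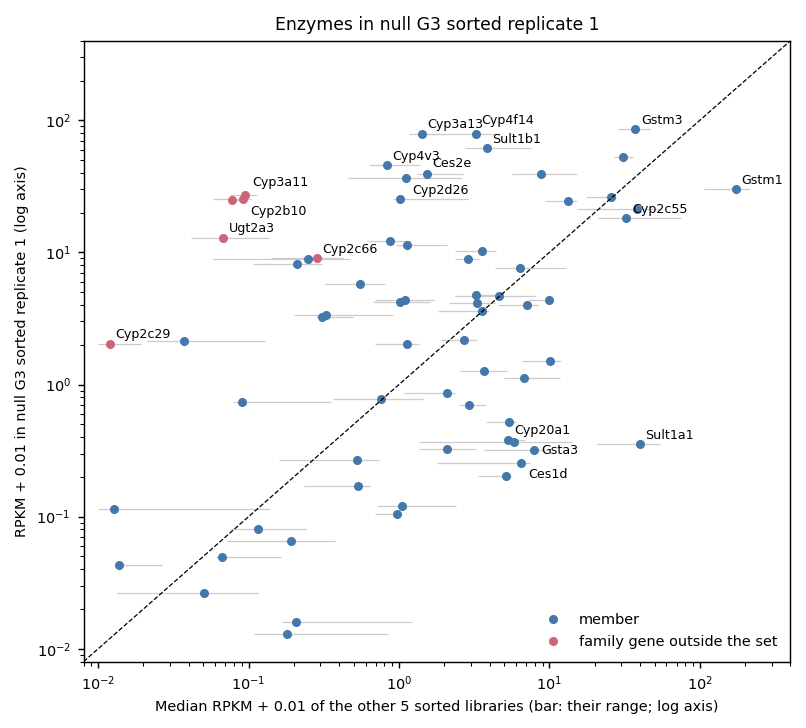
RPKM in null G3 sorted replicate 1 against the median of the other 5 sorted libraries (both + 0.01, log axes; bars give the range of the 5), for the 63 enzymes and for left-out family genes at 1 RPKM or more in that library. Points far above the dashed line of equality include Cyp3a13 and Cyp3a11, and points far below it include Sult1a1 and Gsta3.

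Levels in the other 5 sorted libraries were set beside those of unsorted crypts as a description, since the sorted and unsorted columns list different genes and may have been normalized separately. For 41 of the 63 enzymes (65.1%) the 5 sorted values were all below the 6 unsorted ones, as they were for 53.3% of all genes that met the same level criterion in unsorted crypts. All 5 sulfotransferases and all 5 Ugt1 genes behaved this way. Ugt1a7c was at 1.89 to 3.3 RPKM in sorted cells and 18 to 30.4 in unsorted crypts, and Ces2a was at 0.314 to 0.798 and 6.99 to 35.5. The reverse held for 2 glutathione transferases: Gstm1 was at 107 to 215 RPKM in sorted cells and 56.9 to 83.1 in unsorted crypts, and Gstm3 was at 28.4 to 46.6 and 9.72 to 17. The 63 enzymes together held 0.29% to 0.53% of all RPKM in unsorted libraries and 0.09% to 0.16% in the 5 sorted ones, and 0.18% in null G3 replicate 1.

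Regulators, partner enzymes and exporters of the same pathway were read against the same background of all genes, 4.97% higher and 0.576% lower in null G4 and 1.13% and 0.148% in reactivated crypts, each against heterozygous. None of 17 tested regulators passed in any of the 3 unsorted comparisons. Nr1i2, the pregnane X receptor, was at 11.2 to 14.7 RPKM in unsorted crypts, Ahr, the aryl hydrocarbon receptor, at 1.49 to 2.24, Nfe2l2, which encodes Nrf2, at 21.4 to 28.2, and Hnf4a at 55.4 to 96.1. Of 37 partner and other enzymes 1 rose in null G4: Nqo2, a quinone reductase, measured 2.21 and 2.46 RPKM in heterozygous crypts, and 4.47 and 4.86 in null G4 crypts (log2 difference 0.76, limma adjusted p = 0.0498), and it did not pass after either rescaling. Ephx1, the microsomal epoxide hydrolase, rose in reactivated against heterozygous crypts, at 11.5 and 7.3 against 3.11 and 3.13 RPKM (log2 difference 1.31, limma adjusted p = 0.0287). Its null G4 values, 5.38 and 6.92, also lay above both heterozygous values but did not pass. Ephx1 was not followed after rescaling. Por, the electron donor of microsomal P450 enzymes, was at 10.4 to 17.1 and Nqo1 at 15.9 to 27.2 in unsorted crypts. None of 5 efflux transporters passed, and Abcb1a, which encodes P-glycoprotein, was highest in heterozygous replicate 2 at 64.5 RPKM against 17.5 to 29.2 in the other 5 unsorted libraries. Abcg2, another exporter, was likewise highest there at 7.38 RPKM.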

How the data were processed

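RNA from sorted and unsorted large-intestinal crypt cells was measured in 12 libraries. The authors deposited RPKM, reads scaled by gene length and library size, and all 12 columns were used. STAR 2.3.0e and the build mm10 appear, per the submitters' processing notes, with no stated role. Which annotation, counter and strand option were used is not given in the sources used here. Depth was read from the smallest RPKM steps, of which 81.7% to 83.7% of low unsorted values were whole within 0.05 reads (42.8% to 84% in sorted libraries).

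Genes were tested if they reached RPKM 1 in a number of libraries equal to the smallest group (2 unsorted, 3 sorted), on log2(RPKM + 1), which understates changes of low genes. The test was limma 3.58.1 in R 4.3.3 with a mean trend, two-sided, group as the only term, Benjamini-Hochberg over all tested genes and a threshold of 0.05. The 3 unsorted groups shared 1 fit. The model was tested on simulated data. Python 3.11.15 with pandas 2.3.3 read the table, and coordinates came from GENCODE M21 (GRCm38).

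Genes named were those that passed, the 4 of smallest p where fewer than 4 passed, the 2 most abundant per class, those nearest the level criterion, and fixed genes of the pathway lists. Enzymes, lists and rules were chosen with earlier results of these data known, and genes outside the rule, such as Cyp2c55, Cyp2d10, Cyp2d26 and Ces1g as differences and the enzymes of libraries that stood apart, were chosen after their values were seen. Alternatives were quantile normalization, median scaling, a pseudocount of 0.1, no filter, no trend, a replicate block, a term for Y-linked level and leaving out each library.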

Additional observations from a re-analysis of the deposited data

How the results depend on the processing

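Between null G4 and heterozygous crypts the 3 enzymes higher and 3 lower became 0 and 5 after quantile normalization and 0 and 4 after median scaling, and each time 2 of the 3 lower, Ces1d and Cyp2w1, were shared. Without the filter on low values 0 were higher and 0 lower, with 16 and 5 of all genes. With the Y-linked term 2 were higher and 0 lower, with 59 and 10 of all genes. Leaving out 1 library at a time gave 0 to 14 higher and 2 to 6 lower, and the 14 and 13 higher arose without reactivated replicate 1 or 2, when 5435 and 5459 of all genes were higher, compared with 570. Between reactivated and null G4 crypts the enzymes higher ranged from 0 to 2. Between reactivated and heterozygous crypts 0 enzymes higher and 2 lower became 3 and 1 with the Y-linked term. Without the filter 0 were lower and without the mean trend 1 was lower. Of all tested genes 129 were higher and 17 lower as deposited, and 98 and 20 with the Y-linked term. These counts were 18 and 4 without the filter and 125 and 15 without the mean trend. Leaving out 1 library leaves 1 group with a lone library, so those counts are not given for this comparison. In the shared fit a group left with 1 library adds nothing to the pooled spread. The causes of these shifts were not tested. In the sorted comparison 0 enzymes passed under every alternative run.

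Deviations of same-numbered libraries from their group means had correlations of -0.19 to 0.053 in the sorted set and -0.124 to 0.219 in the unsorted one. With 2 libraries a group the unsorted deviations mirror each other. These few values therefore cannot decide whether the numbers pair the libraries. With a replicate block, 4 enzymes were higher and 6 lower in null G4, and 2 higher and 3 lower in reactivated, each against heterozygous crypts. Of all tested genes 1160 were then higher and 157 lower in null G4, compared with 570 and 66 without the block. In reactivated crypts these counts were 211 and 53, compared with 129 and 17. The enzymes added were Cyp2d10 (higher) and Ces1g, Cyp2c55 and Cyp2d26 (lower) in null G4, and Ces2f and Cyp2d10 (higher) and Cyp4b1 (lower) in reactivated crypts.

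With 2 libraries a group, a missed threshold does not show that an enzyme was equal. Levels near 1 RPKM rest on about 178 to 244 reads for an enzyme of median exon length in unsorted libraries.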
